A study of Mus musculus with 12 samples.

Results

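The genes described here are 10 regulators of G-protein signalling (RGS): Rgs2, Rgs4, Rgs6, Rgs7, Rgs8, Rgs9, Rgs14, Rgs16, Rgs17 and Rgs20. They were taken by symbol from the 15759 rows of a table of normalized counts, where 18 RGS genes have a row, and all 10 were among the 15369 tested genes, whose normalized count averaged 10 or more over the libraries. The list was selected on measured values, since the levels of these genes in the 4 groups of region and genotype were known when it was drawn up, so their levels and genotype differences are given as a description, with no test. The samples were macrodissected cortex and cerebellum from SCA1 KI (Atxn1 154Q/2Q) mice and from WT mice, all on a pure C57BL/6J background and 12 weeks old, with 3 libraries in each of the 4 groups. SCA1 KI mice model spinocerebellar ataxia type 1: their expanded allele, of 154 glutamines, is driven in every Atxn1-expressing cell by the regulatory sequence of the endogenous gene, and the other allele has 2. The labels say that the mice were male, while the paper's methods speak of both sexes, and nothing in the labels says which cortex and cerebellum came from 1 mouse.

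RGS proteins switch off signalling by G-protein-coupled receptors: they bind the active alpha subunit of a G protein and speed up its hydrolysis of GTP. They fall into subfamilies by sequence. The small R4 proteins (here Rgs2, Rgs4, Rgs8 and Rgs16) hold little beyond the RGS domain, the R7 proteins (Rgs6, Rgs7 and Rgs9) are stable only in complex with the beta subunit Gnb5 and act on Gi and Go, the RZ proteins (Rgs17 and Rgs20) prefer Gz and other Gi family members, and Rgs14, of the R12 subfamily, joins an RGS domain to a GoLoco motif that holds inactive Gi. In the brain, Rgs4 is a gene of forebrain neurons, Rgs8 of Purkinje cells, Rgs9 of the striatum and Rgs14 of hippocampal and cortical pyramidal neurons.

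Chromosome 1 held 6 of the 10 genes (60%), in the order Rgs20, Rgs2, Rgs8, Rgs16, Rgs4 and Rgs7. It held 8 of all 18 RGS genes with a row (44.4%) and 6.04% of the tested genes with a position. Rgs8 (153653025 to 153700323, plus strand, GRCm38) and Rgs16 (153740349 to 153745468, plus strand) lie 40.03 kb apart. Rgs4 (169741477 to 169747642, minus strand) lies 45.66 kb from Rgs5, and Rgs2 lies 134.5 kb from Rgs13. Rgs14 (55369732 to 55384687, plus strand) is on chromosome 13, as is Atxn1, with 9405 kb between them. Promoter windows from RefSeq (GRCm38.p6) were matched for 8 of the 10 genes. The 250 bases before the start are shown for Rgs4, which had the highest level of the 10 in the cortex, and for the nearby Rgs8 and Rgs16, both of which had lower levels in SCA1 KI libraries of either region. They are printed 5′ to 3′ on the strand of the gene, with TATAAA in capitals.
Rgs4 (chr1:169747643-169747892, minus strand): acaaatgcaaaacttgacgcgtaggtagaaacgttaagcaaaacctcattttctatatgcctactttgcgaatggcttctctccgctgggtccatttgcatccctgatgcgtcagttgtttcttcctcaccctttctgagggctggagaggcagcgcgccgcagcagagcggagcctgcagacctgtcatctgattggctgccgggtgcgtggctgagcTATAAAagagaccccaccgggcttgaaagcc
Rgs8 (chr1:153652787-153653036, plus strand): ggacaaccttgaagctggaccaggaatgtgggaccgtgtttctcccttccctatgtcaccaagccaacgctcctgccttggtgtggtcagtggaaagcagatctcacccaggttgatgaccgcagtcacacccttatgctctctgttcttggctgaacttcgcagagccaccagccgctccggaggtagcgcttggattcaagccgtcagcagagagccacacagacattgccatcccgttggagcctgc
Rgs16 (chr1:153740103-153740352, plus strand): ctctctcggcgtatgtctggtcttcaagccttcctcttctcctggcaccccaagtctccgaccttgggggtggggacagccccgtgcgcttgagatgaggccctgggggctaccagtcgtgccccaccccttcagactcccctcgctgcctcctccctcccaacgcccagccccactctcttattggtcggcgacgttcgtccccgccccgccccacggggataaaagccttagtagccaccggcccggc
The letters TATAAA, searched on both strands, stood 31 bases before the start in the Rgs4 window and 195 bases before it in that of Rgs9, and in 12.4% of all 32851 windows of this length. The cyclic-AMP response element TGACGTCA (1.55% of all windows) and TGAATGAA, an octamer bound by capicua, a repressor that binds ataxin-1 (1.08%), were in no window of the 8 genes, which says only that these letters are not there. CG dinucleotides numbered 13 in the Rgs4 window, 9 in the Rgs8 window shown and 17 in that of Rgs16, against a median of 6 over all windows. The windows of the other two annotated starts of Rgs8 had 4 and 5. The windows of Rgs2, Rgs7 and Rgs17 each had a GC content of 72.4%, against a median of 52.4%.

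The libraries held 29520855 to 51311309 reads on genes. Normalized counts of Atxn1 lay between 4604 and 8147 in the cortex libraries and between 3628 and 4138 in those of the cerebellum. Of the genes that define cerebellar cells, Pcp2 of Purkinje cells lay between 7439 and 10742 and Gabra6 of granule cells between 20711 and 32164 in the cerebellum. In the cortex both lay at or under 3.04 in 5 libraries and reached 28.5 and 42.1 in WT library D. The genotypes differed in markers of tissue that the label does not name. Summed over 5 genes, thalamus markers were at 12394, 7344 and 9091 in WT cerebellum libraries 2, 4 and 6 and at 3708, 3908 and 4088 in SCA1 KI cerebellum libraries 1, 3 and 5. Of these 5 genes, 4 were differentially expressed genes (DEGs), with a Benjamini-Hochberg adjusted p under 0.05 from limma and an absolute log2 fold change (LFC) over 0.25. All 5 had lower values in every SCA1 KI library, and Shox2, at 0 in 1 SCA1 KI library, lay between 119.7 and 210.0 in WT. Oligodendrocyte markers followed the same order, at 163466 to 250154 in WT and 139174 to 139535 in SCA1 KI, with all 5 genes lower in every SCA1 KI library and 0 of them DEGs by limma or edgeR (4 with an unadjusted limma p under 0.05, and 3 DEGs by DESeq2). Aminergic markers were at 543 to 766 against 314 to 349, with 2 of 4 tested genes lower in every SCA1 KI library and 0 DEGs by limma or edgeR (1 with an unadjusted limma p under 0.05, and 1 DEG by DESeq2). In the cortex the thalamus sums overlapped, at 2138 to 2441 in WT and 2046 to 3394 in SCA1 KI. Of the 5 thalamus genes, 1 was a cortex DEG, with higher levels in SCA1 KI. Shox2 was at 0 in every WT cortex library and at 16.2 to 51.4 in SCA1 KI, and 1 of the 5 genes was lower in every SCA1 KI cortex library. In bulk tissue, fewer cells of a type and less RNA per cell cannot be told apart, and the part of such markers in the values below was not tested.

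Levels of the 10 genes differed between the 2 regions. The paper reanalysed cerebellum data that its laboratory had published before, and set them beside new cortex data. Region and data set therefore cannot be told apart in any comparison of cortex with cerebellum given here. In WT mice 8 of them had higher normalized counts in the cortex and 2, Rgs8 and Rgs16, in the cerebellum, and for none of the 10 did the libraries of the 2 regions overlap. Rgs14 was 125.5-fold higher in the cortex and Rgs4 22.3-fold, while Rgs8 was 14.7-fold higher in the cerebellum. The other ratios were smaller, from 1.54 for Rgs17 to 3.06 for Rgs20 in favour of the cortex, and 1.55 for Rgs16 in favour of the cerebellum. Per kb of exon, Rgs4 stood first in the WT cortex at 8618 ± 866 normalized counts per kb (SD, n = 3). Rgs7 (862 ± 41.9) and Rgs17 (763 ± 91.2) followed with overlapping libraries, then Rgs2 (565 ± 18.7), Rgs14 (475 ± 56.5) and Rgs20 (450 ± 13.5), the last 2 of which overlapped. Below these came Rgs8 (419 ± 12.1), Rgs6 (230 ± 3.13), Rgs16 (154 ± 17.9) and Rgs9 (127 ± 91.7). The libraries of Rgs8 overlapped those of Rgs14, and those of Rgs9, at 67.3 to 232.6 per kb, overlapped those of both Rgs16 and Rgs6. In the WT cerebellum Rgs8 stood first at 6159 ± 595 per kb, and Rgs17, Rgs7 and Rgs4 followed at 495 ± 151, 446 ± 12.2 and 386 ± 152, each overlapping the next. Rgs14 came last there at 3.78 ± 1.22. In the SCA1 KI groups the same genes were first, Rgs4 at 4027 ± 134 per kb in the cortex and Rgs8 at 3994 ± 264 per kb in the cerebellum.

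**Figure D1:**
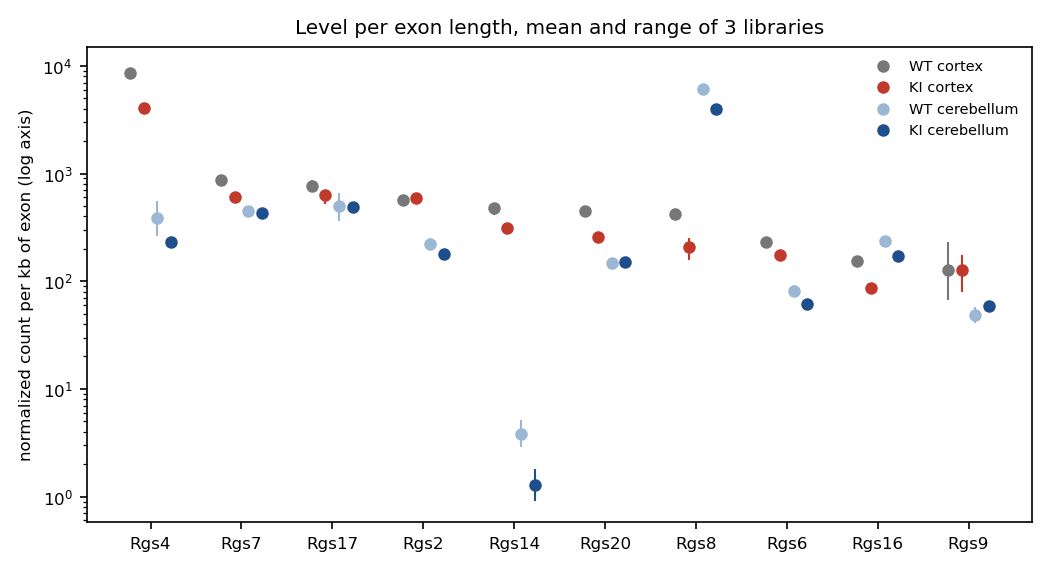
Normalized counts per kb of exon (log axis) for the 10 RGS genes, ordered by their level in the WT cortex; points are means and lines the range of 3 libraries in each group. Rgs4 stands at 8618 in the WT cortex and Rgs8 at 6159 in the WT cerebellum, and Rgs14 is at 3.78 in WT and 1.28 in SCA1 KI cerebellum.

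Fitted with limma across all tested genes, 6 of the 10 genes were DEGs with lower levels in the SCA1 KI cortex (Rgs4, Rgs6, Rgs7, Rgs8, Rgs16 and Rgs20) and none was a DEG with higher levels, by limma, edgeR or DESeq2. Of all tested genes, 10.8% were cortex DEGs with lower and 4.82% with higher levels. In the cerebellum 4 of the 10 were DEGs with lower levels (Rgs6, Rgs8, Rgs14 and Rgs16) and none, by any of these tools, with higher levels, against 4.44% and 0.917% of all genes. Rgs6, Rgs8 and Rgs16 were in both sets. For 7 of the genes in the cortex and 6 in the cerebellum, every SCA1 KI library was under every WT library. Of all 15369 tested genes, 2760 in the cortex and 2690 in the cerebellum had every SCA1 KI library under every WT library. In either direction, 30.9% in the cortex and 31.8% in the cerebellum did not overlap. The median LFC of the 10 genes was −0.56 in the cortex and −0.36 in the cerebellum, beside −0.0028 and −0.0049 for all tested genes. As the genes were listed with these contrasts known, the name DEG only describes them here, and nothing is read from these counts.

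**Figure D2:**
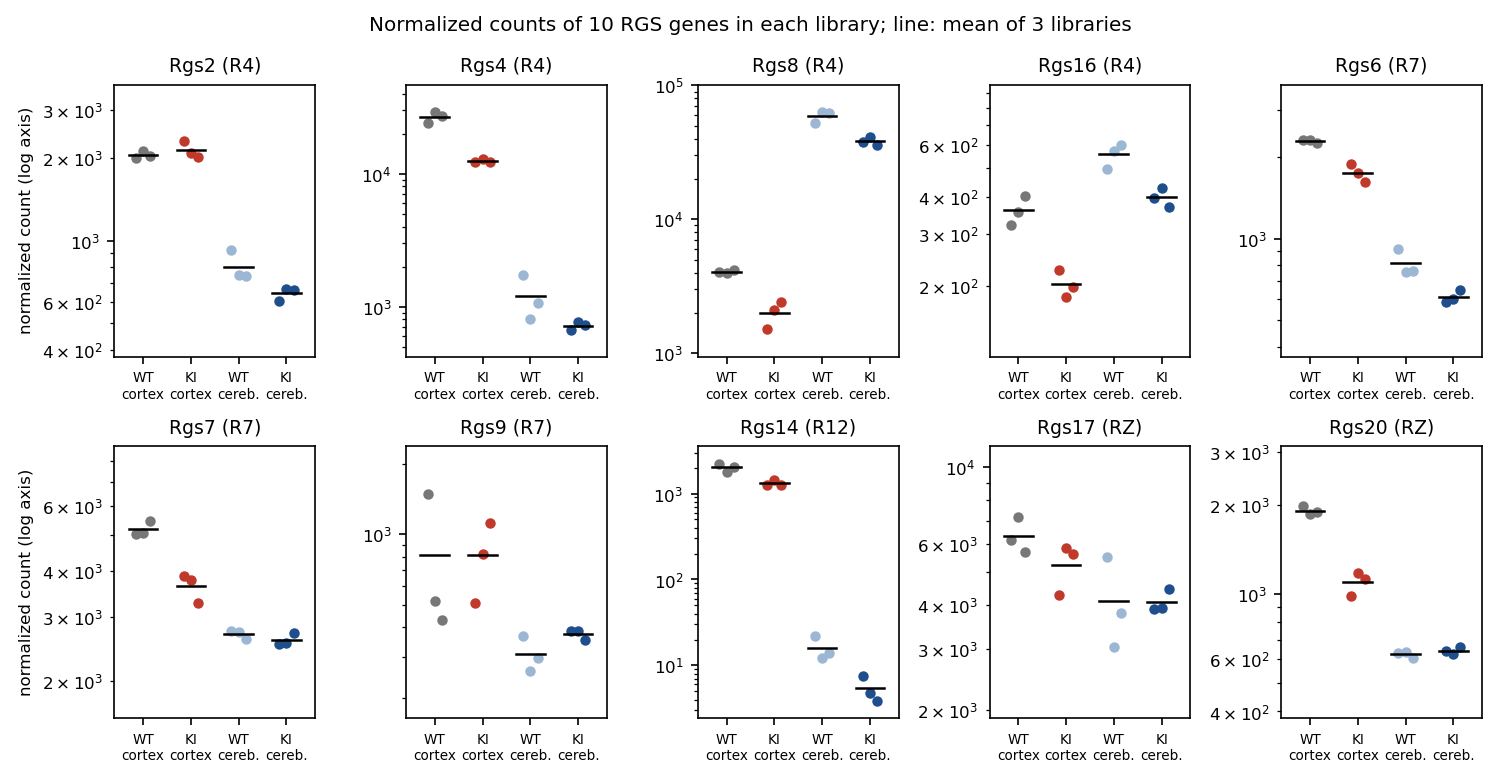
Normalized counts (log axis, its own range in each panel) of the 10 RGS genes in each library, with the mean of the 3 libraries of each group as a line. Rgs4, Rgs6, Rgs8, Rgs14 and Rgs16 lie lower in every SCA1 KI library of both regions, Rgs20 and Rgs7 do so in the cortex, and Rgs9 is spread over 430.4 to 1487 in the WT cortex.

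Of the R4 genes, Rgs4 is a brake on Gi and Gq signalling in cortical neurons. Its normalized counts were 23879, 29220 and 26994 in WT cortex libraries B, C and D and 12322, 12947 and 12160.1 in SCA1 KI libraries A, E and F. Every SCA1 KI library was thus under every WT library, with a mean of 46.7% of WT and an LFC of −1.09 (standard error 0.19), on the scale of log2(normalized count + 1) used throughout. The standard errors given here pool the spread of a gene over both regions and genotypes. A gene thus has the same standard error in cortex and cerebellum, which is not the spread of that region alone. In the cerebellum its counts were 1722, 809.8 and 1055 in WT and 671, 768 and 723 in SCA1 KI. The groups did not overlap there either, but WT library 2 was far above the other two and WT library 4 was close to the SCA1 KI libraries. The LFC of −0.66 (standard error 0.19) made no DEG with limma, made one with edgeR and DESeq2, and was −0.36 without WT library 2 and −0.90, a DEG, without WT library 4. The WT libraries took the same order, 2, 6, 4, in the summed markers of thalamus, oligodendrocytes, microglia, and endothelium and mural cells. The SCA1 KI libraries had the order 3, 5, 1 in Rgs4 and 5, 3, 1 in the thalamus markers. The part of these markers in the cerebellum values of Rgs4 was not tested.

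Rgs8, which acts on Gi and Go signalling and is enriched in Purkinje cells, was at 52829.8, 63495 and 61804 in WT cerebellum libraries 2, 4 and 6 and at 38120.3, 41219.8 and 36177 in SCA1 KI libraries 1, 3 and 5. All SCA1 KI values were lower, at 64.9% of the WT mean (LFC −0.62, standard error 0.13). The summed level of 6 Purkinje cell markers was 277790, 348757 and 331261 in the same WT libraries and 264998, 287479 and 255462 in SCA1 KI, so that the genotypes overlapped in the sum, while 4 of the 6 markers were lower in every SCA1 KI library, as Rgs8 was. Pcp2 was one of these, at 9414 to 10742 in WT and 7439 to 8031 in SCA1 KI, and 0 of the 6 were DEGs in the cerebellum by limma or edgeR, with 2 at an unadjusted limma p under 0.05 and 1 DEG by DESeq2. The part of these markers in the values of Rgs8 was not tested. Without WT library 2, the lowest WT library in Rgs8 and in the Purkinje cell sum, the LFC of Rgs8 was −0.70. Summed granule cell markers were also lowest in WT library 2, at 141401, beside 199439 and 193847 in WT libraries 4 and 6. In the cortex Rgs8 was far less abundant, at 4014, 3945 and 4173 in WT and 1506, 2112 and 2406 in SCA1 KI, and again the groups did not overlap. Its mean was 49.7% of WT there (LFC −1.04, standard error 0.13), and without SCA1 KI library A, the lowest, the LFC was −0.84. The other genes of the Purkinje cell list had reads in the cortex, where the sum was 42039 to 45080 in WT and 24577 to 28717 in SCA1 KI. Of the 6 genes of the list, 3 were cortex DEGs with lower levels and 1 with higher levels.

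Rgs16, which lies near Rgs8 and is an RGS protein of Gi and Gq signalling whose transcript is induced by activity and by the circadian clock, was lower in both regions as well. Its counts in the cortex were 321, 354 and 404 in WT and 226, 183 and 197 in SCA1 KI (LFC −0.83, standard error 0.12, 56.2% of WT). In the cerebellum they were 499, 573 and 602 in WT and 398, 429 and 369 in SCA1 KI (LFC −0.48, standard error 0.12, 71.4% of WT). Neither region had an SCA1 KI library as high as any WT library. The antisense gene Gm28513 shares 236 bases of exon with Rgs16, 10.1% of its exon length, and the sources used here do not say whether reads were counted by strand.

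Rgs2, an RGS protein selective for Gq, was the R4 gene with no difference in the cortex beyond the spread of its libraries. It was at 1995, 2126 and 2029 in WT cortex and 2317, 2095 and 2024 in SCA1 KI cortex, which overlapped (LFC 0.06, standard error 0.089). In the cerebellum it was at 922, 748 and 744 in WT and 604, 668 and 660.3 in SCA1 KI, without overlap. The LFC of −0.31 (standard error 0.089) there made no DEG and was −0.21 without WT library 2, which was again the highest.

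Of the R7 genes, Rgs7, the most abundant of the 3 per exon length and a partner of the membrane anchors Rgs7bp and Gpr158, was lower in the cortex. Its counts were 5030.2, 5059.9 and 5481 in WT cortex and 3877, 3769 and 3272 in SCA1 KI cortex, 70.1% of the WT mean (LFC −0.51, standard error 0.068), with no overlap. In the cerebellum it lay at 2739, 2717 and 2602 in WT and 2533, 2540.4 and 2700.1 in SCA1 KI (LFC −0.05, standard error 0.068), and these groups overlapped. The LFC in the cortex minus that in the cerebellum was −0.46 (standard error 0.097).

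Rgs6, which limits the opening of GIRK potassium channels by Gi-coupled receptors, had LFCs of like size in the 2 regions, −0.39 in the cortex and −0.41 in the cerebellum (standard error 0.085 for each). It was at 2324, 2314 and 2266 in WT cortex and 1892, 1754 and 1621 in SCA1 KI cortex. The WT cerebellum had 918, 756 and 761 and the SCA1 KI cerebellum 586, 600.1 and 646, so that SCA1 KI was lower without overlap in both. After a correction of each library for its trend on gene length and GC, the LFC in the cortex was −0.28 and Rgs6 was a DEG in neither region.

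Rgs9, whose long isoform is a striatal brake on dopamine and opioid signalling, varied among libraries of 1 genotype more than between genotypes. In the cortex it was at 1487, 519 and 430.4 in WT and 506, 823 and 1115 in SCA1 KI (LFC 0.16, standard error 0.38). WT library B was the highest of all, and without it the LFC was 0.71, while without WT library D it was −0.18. Summed striatum markers, a list without Rgs9, were also highest in WT library B, at 31119, beside 16203 and 18380.2 in C and D and 9615, 14178 and 17133 in SCA1 KI libraries A, E and F. Within each genotype the library with the most Rgs9 was the one with the highest striatum sum, but C and D were in the opposite order. Summed oligodendrocyte markers took the order of Rgs9 within both genotypes, at 125999, 78575 and 72896 in B, C and D and 77964, 89516 and 90175 in A, E and F. The part of these cells in the values of Rgs9 was not tested. In the cerebellum Rgs9 was at 367, 261 and 296 in WT and 385, 386 and 354 in SCA1 KI, which overlapped (LFC 0.30, standard error 0.38).

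**Figure D3:**
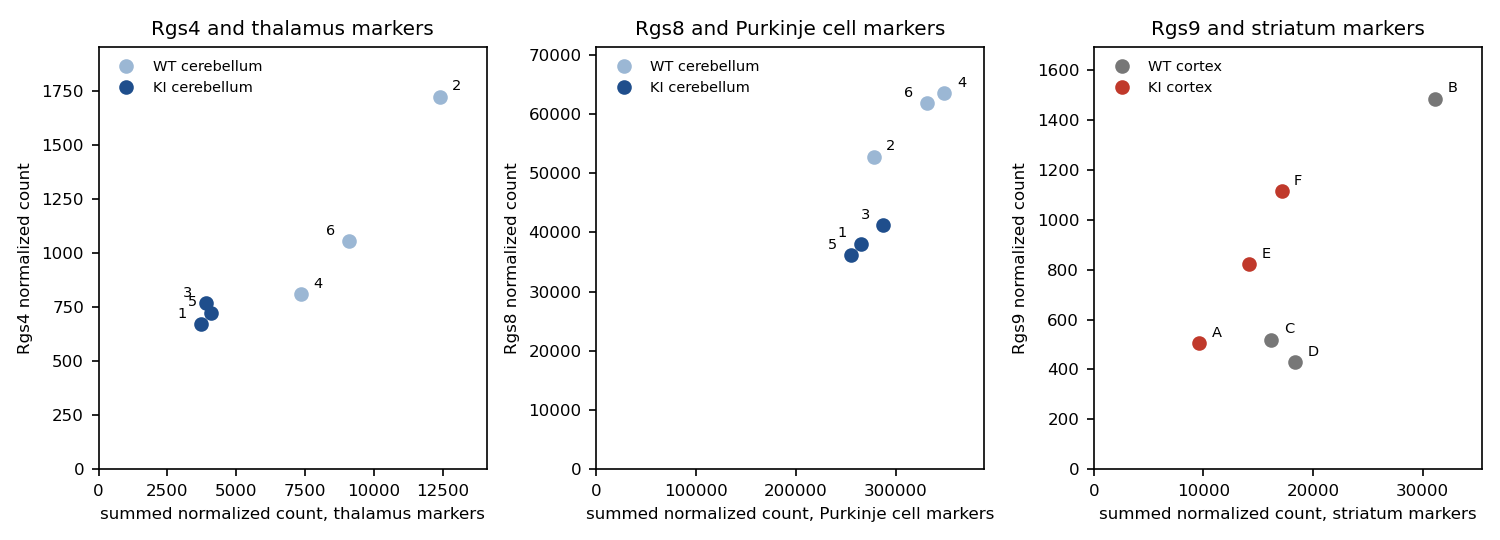
Normalized counts of Rgs4 and Rgs8 in the cerebellum libraries and of Rgs9 in the cortex libraries (y axes) against the summed normalized counts of thalamus, Purkinje cell and striatum markers (x axes); each point is 1 library with its letter or number. WT library 2 is highest in Rgs4 and thalamus markers and lowest of the WT libraries in Rgs8 and Purkinje cell markers, and WT library B is highest in Rgs9 and striatum markers.

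Rgs14, the R12 gene, was the one with the largest gap between the regions. Its cortex counts were 2234, 1758 and 2047 in WT and 1259, 1422 and 1259 in SCA1 KI, which did not overlap. The SCA1 KI mean was 65.2% of WT (LFC −0.61, standard error 0.23) and Rgs14 was no DEG in the cortex, although it was one when each region was fitted on its own, with a pseudocount of 5, with edgeR, with DESeq2 and without WT cerebellum library 2. In the cerebellum it was barely detected, with 24, 10 and 12 reads in WT libraries 2, 4 and 6 and 9, 7 and 4 reads in SCA1 KI libraries 1, 3 and 5. These reads correspond to normalized counts of 21.9, 12.2 and 14.0 against 7.58, 4.81 and 3.87, a mean of 33.8% of WT with no overlap. The WT libraries took the order 2, 6, 4 of the summed markers of thalamus, oligodendrocytes, microglia, and endothelium and mural cells. The SCA1 KI libraries took the opposite order to that of the thalamus markers. The part of these markers in the cerebellum values of Rgs14 was not tested. The LFC of −1.41 (standard error 0.23) depended on the pseudocount, from −1.002 with a pseudocount of 5 to −1.49 with 0.5, and it was −1.17 without WT library 2. Rgs14 was no DEG in the cerebellum when that region was fitted on its own.

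Of the RZ genes, Rgs20, which acts on Gz, was lower in the cortex and not in the cerebellum. It was at 1971, 1863 and 1884 in WT cortex and 981, 1178 and 1123 in SCA1 KI cortex, 57.4% of the WT mean (LFC −0.80, standard error 0.073). The 3 WT libraries lay close together and far above the SCA1 KI libraries. In the cerebellum the counts of 630.0, 634 and 607 in WT and 639, 625 and 661 in SCA1 KI overlapped (LFC 0.04, standard error 0.073). The LFC in the cortex minus that in the cerebellum was −0.85 (standard error 0.10) for Rgs20, and 0.80 (standard error 0.32) for Rgs14. Exons of Rgs20 share 127 bases with Atp6v1h and 125 with the pseudogene Gm17101, both on the opposite strand.

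Rgs17, a regulator of opioid receptor signalling through Gz and Gi, had overlapping genotypes in both regions. Its counts were 6161, 7160.3 and 5677 in WT cortex and 4288, 5824 and 5599.8 in SCA1 KI cortex (LFC −0.28, standard error 0.18). In the cerebellum they were 5487, 3035 and 3796 in WT and 3900.0, 3925 and 4454 in SCA1 KI (LFC 0.04, standard error 0.18). Library 2 was the highest of the WT cerebellum, as for Rgs2, Rgs4, Rgs6, Rgs7, Rgs9 and Rgs14. Without it the LFC of Rgs17 was 0.27, and without WT library 4 it was −0.16.

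**Figure D4:**
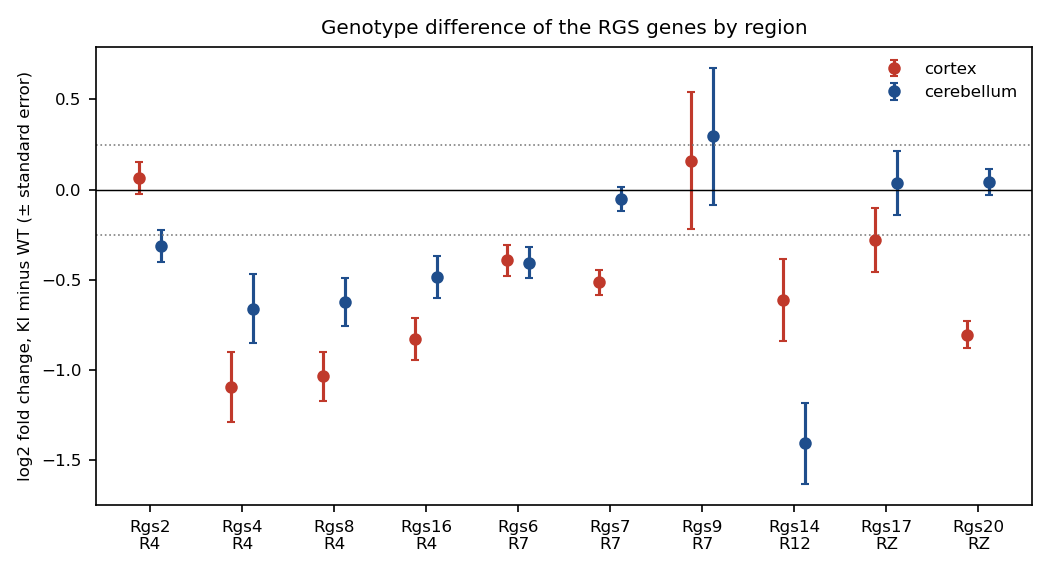
LFC of SCA1 KI minus WT for the 10 RGS genes in cortex (red) and cerebellum (blue), with standard errors as bars and the limits of ±0.25 dotted. The standard errors pool the spread of both regions. Rgs4 (−1.09), Rgs8 (−1.04), Rgs16 (−0.83) and Rgs20 (−0.80) lie lowest in the cortex and Rgs14 (−1.41) in the cerebellum, where Rgs7 and Rgs20 lie near 0.

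In their variation within groups, after subtraction of the group means over 12 libraries, the genes were each closest to different tested genes. Rgs4 was nearest to Lrfn5 (Pearson r = 0.99) and Nrsn1 (0.99), Rgs8 to Dner (0.97) and Fam101b (0.96), and Rgs16 to Bloc1s2 (0.96) and 5430416N02Rik (0.95). Rgs2 was nearest to Ephb6 (0.98) and Npnt (0.95), Rgs7 to Arhgap15 (0.94) and Aen (0.94), and Rgs6 to Slc5a5 (0.95) and Hoxb8 (0.95). Rgs9 was nearest to Plekhg3 (0.98) and to Myrf (0.98), a transcription factor of myelinating cells, and Rgs14 to Fstl3 (0.93) and Nfatc4 (0.93). Rgs17 was nearest to Nptx2 (0.97) and 2900092D14Rik (0.96), and Rgs20 to Adcy8 (0.98), an adenylyl cyclase, and Zbtb5 (0.97). These are descriptions chosen as the highest of 15369 correlations over 12 libraries of 2 regions and unequal depth. All genes of a library share its tissue content and its depth.

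Of 11 other RGS genes listed, 8 had a row (Rgs3, Rgs5, Rgs10, Rgs11, Rgs12, Rgs13, Rgs19 and Rgs22), and their median LFC was 0.06 in the cortex and −0.18 in the cerebellum. An unadjusted limma p under 0.05 was found for 5 of these 8 in the cortex and 3 in the cerebellum. Rgs13, an RGS gene known from B cells and mast cells, was the only one called in the cortex. It rose from 13.1, 26.6 and 26.2 normalized counts in WT to 140.9, 143 and 157 in SCA1 KI (LFC 2.75, standard error 0.46, adjusted p = 0.00137 from limma), and at most 2 reads fell on it in any cerebellum library. Its LFC in the cortex lay between 2.43 and 2.92 when 1 library was left out. Rgs10, an RGS gene of microglia and neurons, was the only one called in the cerebellum, with 782, 544 and 614 in WT and 391, 479 and 408 in SCA1 KI (LFC −0.59, standard error 0.13, adjusted p = 0.0195 from limma). It was not called without WT library 2 (LFC −0.44, adjusted p = 0.0665), without SCA1 KI library 1 (−0.53, adjusted p = 0.0955) or without SCA1 KI library 5 (−0.56, adjusted p = 0.0761). Its LFC in the cortex was −0.31 (adjusted p = 0.127).

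The partners of the R7 proteins did not move as 1 group. Gnb5, the beta subunit that Rgs6, Rgs7 and Rgs9 need, was not called in the cortex (LFC −0.12, adjusted p = 0.307) or the cerebellum (0.23, adjusted p = 0.0996). Rgs7bp, which anchors R7 complexes to the membrane, fell in the cortex (LFC −0.54, adjusted p = 8.52e-04) and was not called in the cerebellum (−0.12, adjusted p = 0.554). Gpr158, an orphan receptor that binds Rgs7, fell in the cortex from 12839, 11608 and 11367 to 7006, 8797 and 8062 (LFC −0.59, adjusted p = 3.98e-04). In the cerebellum it rose from 9719, 11180.2 and 10579.7 to 13824, 13048 and 13602 (LFC 0.36, adjusted p = 0.0220), a call that was lost without any 1 of SCA1 KI libraries 1, 3 and 5 or of WT libraries 2 and 6, with adjusted p from 0.0569 to 0.0959. The difference between the regions was −0.95 for Gpr158 (adjusted p = 6.65e-04) and −0.43 for Rgs7bp (adjusted p = 0.0468), and 8.15% of all tested genes had an adjusted p under 0.05 for it. Rgs9bp and Gpr179, anchors known from the retina, were not called.

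On the other side of the RGS proteins stand the G proteins themselves, the receptors that activate them and their effectors. None of 12 alpha subunits tested, which include the Gi, Go, Gz and Gq subunits that RGS proteins act on, was a DEG in either region with limma, edgeR or DESeq2, with an unadjusted limma p under 0.05 for 3 in the cortex and 1 in the cerebellum, and their LFCs had medians of −0.04 in the cortex and −0.10 in the cerebellum. Of 13 beta and gamma subunits, Gng4 rose in the cortex (LFC 1.00, adjusted p = 0.0201) and Gng13, a gamma subunit of Purkinje cells and taste cells, fell in the cerebellum (LFC −0.84, adjusted p = 0.0146). Of the 4 GIRK channel subunits, which Rgs6 and Rgs7 control, Kcnj3 (LFC −0.28), Kcnj6 (−0.66) and Kcnj9 (−0.62) fell in the cortex. None was called by limma or edgeR in the cerebellum, where 3 had an unadjusted limma p under 0.05 and DESeq2 called 1 higher. Of the 4 phospholipases C beta, effectors of Gq, Plcb1 (LFC −0.70) and Plcb4 (−0.64) fell in the cortex and Plcb3 (−0.91) fell in the cerebellum, and Plcb2 was called in neither region (adjusted p = 0.665 and 0.0802). Of all tested genes, 10.8% fell and 4.82% rose in the cortex, and 4.44% fell and 0.917% rose in the cerebellum. Of 29 Gi- or Go-coupled receptors, 13 fell in the cortex and none rose, with Grm2 (LFC −1.44), Grm3 (−0.87) and Adora1 (−0.68) among them. In the cerebellum 9 of them fell, Htr1a most (LFC −3.47), and Sstr3 rose (0.41). Of 11 Gq-coupled receptors, 6 fell in the cortex, from Adra1d (LFC −1.54) to Adra1a (−0.48), and 4 in the cerebellum, among them Grm5 (−1.68) and Chrm3 (−1.60). Of 7 receptor kinases and arrestins, Grk2 (LFC −0.28) and Arrb1 (−0.44) fell in the cortex and Grk3 (−0.36) in the cerebellum, and of 6 exchange factors and GoLoco proteins limma and edgeR called none. Of these 6, an unadjusted limma p under 0.05 was found for 3 in the cortex and 0 in the cerebellum, and DESeq2 called 1 lower in the cortex. With the partners of the R7 proteins, 28 of 91 tested genes of these lists fell and 1 rose in the cortex, and 16 fell and 2 rose in the cerebellum. Some of these calls rested on single libraries. Gng4 was not called without WT cortex library B or D or SCA1 KI cortex library F (adjusted p 0.0609 to 0.0763), Gng13 not without SCA1 KI cerebellum library 1 or 3 or WT library 6 (0.0591 to 0.0607), and Adra1a not without SCA1 KI cortex library A or WT library B or C (0.0648 to 0.0946). Grk2 fell under the LFC limit without SCA1 KI cortex library F (LFC −0.2496). Kcnj3 in the cortex stayed called only without WT cerebellum library 2 or 4 or SCA1 KI cortex library E (otherwise adjusted p 0.0508 to 0.126), and Sstr3 in the cerebellum only without SCA1 KI cortex library A or E (otherwise 0.0569 to 0.189).

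**Figure D5:**
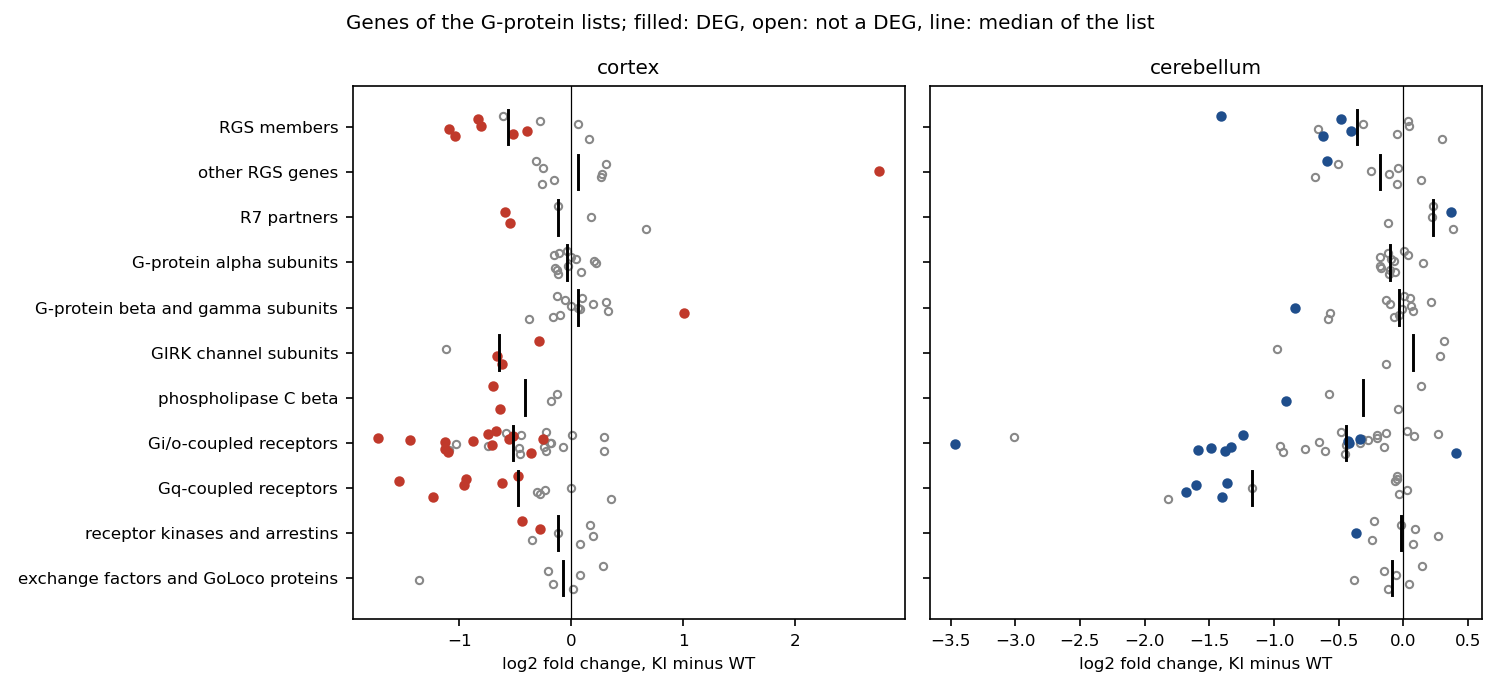
LFC of SCA1 KI minus WT (x axes) for each tested gene of the RGS and G-protein lists (rows) in cortex and cerebellum; filled points are DEGs, open points are not, and the line is the median of the list. The 12 alpha subunits lie near 0 in both regions, and 13 of 29 Gi- or Go-coupled receptors are filled in the cortex, all to the left of 0.

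Summed markers of cortical cell types differed between the genotypes as well. Cortical excitatory neuron markers, summed over 8 genes, lay between 89180 and 91141 in WT and between 59907 and 70992 in SCA1 KI cortex, and 3 of the 8 were DEGs, all lower. Slc17a7 made up most of this sum, at 59871 to 62252 in WT and 41177 to 47425 in SCA1 KI. Of the 8 genes, 4 were lower in every SCA1 KI cortex library. Forebrain interneuron markers lay between 15021 and 16060 in WT and 9803 and 11651 in SCA1 KI, with 2 of 8 DEGs, both lower. Of these 8 genes, 5 were lower and 1 was higher in every SCA1 KI cortex library. Astrocyte markers lay between 50263 and 55335 in WT and 33383 and 43584 in SCA1 KI, with 3 of 5 DEGs, all lower. Of all tested genes, 10.8% were cortex DEGs with lower and 4.82% with higher levels in SCA1 KI. The LFCs of Rgs4, Rgs8, Rgs16 and Rgs20 in the cortex thus stand beside lower sums of neuronal markers, whose part in them was not tested.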

How the data were processed

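Cortex and cerebellum RNA of 12 libraries was sequenced as poly-adenylated, paired-end libraries. Alignment by the authors was to mm10 with STAR, featureCounts gave reads per gene, and the deposited signal is the normalized count, the reads divided by the size factor that DESeq2 gave the library. Tool versions, annotation and strand setting are not given in the sources used here. All values (100%) were whole multiples of 1 read (tolerance 0.01), so reads were recovered, from 29520855 to 51311309 per library, and no pair of replicates agreed within sampling noise (chi-square per gene of at least 7.54). Columns name region, genotype and a letter or number, and no replicate of the labels. P-values measure only the spread between these libraries, which may be technical.

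Genes with a mean of at least 10 (15369, with 390 left out) went into a limma 3.58.1 fit (R 4.3.3) of log2(normalized count + 1), with 4 group means over 12 libraries. This scale understates changes of low genes. A DEG had a Benjamini-Hochberg adjusted p under 0.05 over all tested genes and an absolute LFC over 0.25. edgeR 4.0.16 and DESeq2 1.42.0 on the recovered reads were alternatives, and edgeR called 1630 genes lower and 842 higher in the SCA1 KI cortex and 721 and 145 in the cerebellum. Other alternatives changed the pseudocount to 0.5 or 5, dropped the filter or raised it to 100, fitted the regions separately, centred each region on its median, removed the trend on length and GC content (known for 95.27% of tested genes), dropped the limit on the LFC, or left out 1 library. The scripts were tested on simulated data. Positions are from GENCODE vM21 (GRCm38), matched to 15012 of 15759 rows, and promoters from RefSeq.

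The RGS genes and all gene and marker lists were chosen with earlier results of these data known. Named are all 10 genes, the other RGS genes with a row, the partners of the R7 proteins, DEGs of the G-protein lists (some as counts), the 2 genes closest to each of the 10 over residuals from group means, and genes sharing exons with them. Marker lists for hippocampus, cerebellar granule cells, choroid plexus, microglia, and endothelium and mural cells together had 0 DEGs among 29 tested genes in the cortex and 2 in the cerebellum, and the striatum list had 3 of 10 in each region, all lower. Choroid plexus sums in the cerebellum spread from 19401 to 72198 in WT and from 821 to 75165 in SCA1 KI. Cerebellum sums of astrocyte markers were lower in SCA1 KI (96669 to 99595 in WT, 86924 to 90285 in SCA1 KI). So were those of forebrain interneuron markers (15319 to 17722 against 12682 to 13693). These 8 genes were split, with 3 cerebellum DEGs lower and 1 higher, and 4 lower and 2 higher in every SCA1 KI cerebellum library. Cerebellum sums of cortical excitatory neuron markers were higher in SCA1 KI (14878 to 19728 against 20762 to 22728). Slc17a7 made up most of these sums, at 11695 to 16696 in WT and 18056 to 19972 in SCA1 KI. The 8 genes of the list were split, with 1 DEG lower and 1 higher, and 1 lower and 2 higher in every SCA1 KI cerebellum library. Protein and histology were not analysed here.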

Additional observations from a re-analysis of the deposited data

Results flagged for a closer look

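The genotype difference of 24 genes that are partners, receptors, effectors or relatives of the 10 RGS genes differed between cortex and cerebellum, at an adjusted p under 0.05 for the difference from limma (8.15% of all tested genes). The differences below are the LFC in the cortex minus the LFC in the cerebellum. As the cerebellum data are from an earlier data set, region and data set cannot be told apart in them.

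Among relatives and partners of the RGS proteins the difference was 3.00 for Rgs13, −0.43 for Rgs7bp and −0.95 for Gpr158. Rgs13 had at most 2 reads in any cerebellum library, so its difference rests on the cortex. Among G-protein subunits it was 1.57 for Gng4 and 0.90 for Gng13.

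Among effectors it was −0.59 for Kcnj3, −0.94 for Kcnj6, −0.84 for Plcb1, −0.59 for Plcb4 and 0.72 for Plcb3, and for the receptor kinase Grk2 it was −0.37. Plcb1 and Plcb4 were lower in the SCA1 KI cortex and Plcb3 in the SCA1 KI cerebellum.

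Among Gi- and Go-coupled receptors the difference was −0.70 for Adora1, −1.01 for Adra2c, −0.60 for Cnr1, −1.17 for Grm2, −0.44 for Grm3 and −0.76 for Sstr3. It was positive for Chrm2 (1.25), Htr1a (2.44), Npy1r (1.09) and Sstr1 (1.68), each of which was called lower in the SCA1 KI cerebellum. Among Gq-coupled receptors it was −0.89 for Adra1b and −1.47 for Adra1d, and 1.38 for Grm5. Thalamus markers differed between the genotypes in the same cerebellum libraries, at 7344 to 12394 in WT and 3708 to 4088 in SCA1 KI, and their part in the calls of the cerebellum was not tested.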

How the results depend on the processing

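No paired analysis was possible because the columns carry no replicate numbers of the labels. Genes with higher levels in the SCA1 KI cortex numbered 393 when each region was fitted on its own, against 741. Those with higher levels in the SCA1 KI cerebellum numbered 220 with each region on its own, 231 with DESeq2 and 499 with the trend on length and GC content removed, against 141. That removal changed the share of DEGs that were lower in the cortex to 56.7% (from 69.2%) and in the cerebellum to 54.8% (from 82.9%), and left 2 of the RGS genes as cerebellum DEGs, against 4. Leaving out 1 library gave 529 to 806 higher and 1285 to 1787 lower genes in the cortex, 43 to 195 higher and 356 to 806 lower genes in the cerebellum, and 783 to 1267 genes that differed between the regions. RGS genes that were DEGs then numbered 6 to 7 in the cortex and 1 to 5 in the cerebellum. In the cerebellum, RGS DEGs numbered 1 without SCA1 KI library 1 and 2 without SCA1 KI library 3, SCA1 KI library 5 or WT library 6. Higher genes there numbered 43, 50 and 55 without SCA1 KI libraries 1, 3 and 5, and 78 and 81 without WT libraries 2 and 6. Lower genes numbered 356 and 404, and genes that differed between the regions 783 and 833, without SCA1 KI libraries 1 and 3. The causes were not tested beyond the loss of 1 library.

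Rgs4, Rgs7, Rgs8, Rgs16 and Rgs20 were cortex DEGs under every alternative run. Of the cerebellum DEGs, Rgs8 kept its call under the 10 settings with all libraries and lost it without SCA1 KI library 1 or 5 or WT library 6. Rgs16 lost its call with the trend removed and without 5 libraries (SCA1 KI 1, 3 and 5, WT 4 and 6), and Rgs6 with the trend removed and without SCA1 KI libraries 1 or 3. Rgs2 became a cerebellum DEG with DESeq2 and without SCA1 KI cortex library A. No call reversed. Of the 908 values of the other named genes with all libraries, 18 lost and 20 gained a call, and 80 and 14 of 1224 did so with 1 library left out. In the cerebellum, depth limits Rgs14, at 4 to 24 reads, and Rgs13, at most 2 reads.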
